A study of Mus musculus with 15 samples.

Results

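The genes described here are 10 whose products move calcium into, out of and around the sarcoplasmic reticulum of heart muscle, or regulate that movement: the release channel gene Ryr2 with its partners Trdn, Asph, Casq2, Hrc and Jph2, the pump gene Atp2a2 with its inhibitor Pln, the exchanger gene Slc8a1 and the kinase gene Camk2d. They were chosen by name, and each of the 10 names matched 1 of the 9666 genes in the deposited table. The libraries, which came from wild-type (WT) C57BL/6 mice of 3 age groups, are titled as ventricular heart muscle cells, while the extraction notes speak of RNA from heart tissue as well as cells. These were newborns taken 1 day after birth (P1, 4 libraries), pups at day 3 (P3, 4 libraries) and mice aged 8 to 12 weeks (adult, 7 libraries). The labels name no treatment, transgene or Cre for any group. The study looked for mediators of the regeneration of heart muscle. Whether the libraries of a group stand for different animals is not stated in the labels, and the spread that enters each p-value may therefore be technical. Values are RPKM, reads scaled by gene length and by the reads of the library, so levels may be set side by side between genes.

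In a heart muscle cell, calcium that enters through the surface membrane opens the release channel of the sarcoplasmic reticulum, an internal store, and the released calcium switches on the contractile filaments. The pump then returns calcium to the store, held back by its inhibitor until that inhibitor is phosphorylated, while the exchanger carries the rest out across the surface membrane. Immature heart muscle has few transverse tubules and a sparse store, and it leans more on calcium flow across the surface membrane than adult muscle does.

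The libraries differed in the marker genes of the cells they hold. All 10 cardiomyocyte markers were in the table, and their summed RPKM ran from 13066 to 27899 in adult, from 5424 to 12697 in P1 and from 742 to 5513 in P3. Endothelial markers (9 of 10 in the table) summed to 2.74 to 215 in adult, 210 to 481 in P1 and 706 to 1668 in P3. Fibroblast markers (5 of 9 in the table) summed to 1.13 to 78.3 in adult, 164 to 1408 in P1 and 379 to 810 in P3. A pair of libraries stood apart. P1 replicate 1 had a fibroblast sum of 1408 against 164 to 200 in the other P1 libraries and the lowest cardiomyocyte sum of P1, and it was the lowest P1 library for 10 of the 10 calcium genes. P3 replicate 1 had a cardiomyocyte sum of 5513 against 742 to 1510 in the other P3 libraries, and it was the highest P3 library for 9 of the 10. Summed RPKM of atrial markers (3 of 6 in the table) was 6.96 to 35.2 in adult libraries, 669 to 1345 in P1 libraries and 10.1 to 277 in P3 libraries. Nppa changed by 6.28 (P1) and 1.83 (P3) and Myl4 by 5.38 and 2.80, as log2 changes against adult. Tbx5, the remaining gene, did not follow them, at 0.37 and -1.01. Whether the P1 libraries held atrial cells was not tested. Of 8 mural and smooth muscle markers 3 were in the table, summing to 19.4 to 98.3 RPKM in adult, 110 to 503 in P1 and 407 to 711 in P3. These mural and smooth muscle genes did not move together. Acta2 changed by 3.68 in P1 and 4.45 in P3, Myh11 by 0.68 and 1.14, and Rgs5 by -1.62 and -0.60. Of 6 skeletal muscle markers only Casq1 was in the table. Immune, erythroid and epicardial markers were not analysed here. Estimated depth, from the whole-read steps of the RPKM values, was 6200000 to 17100000 reads in adult, 10500000 to 11200000 in P1 and 9500000 to 13600000 in P3.

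**Figure D1:**
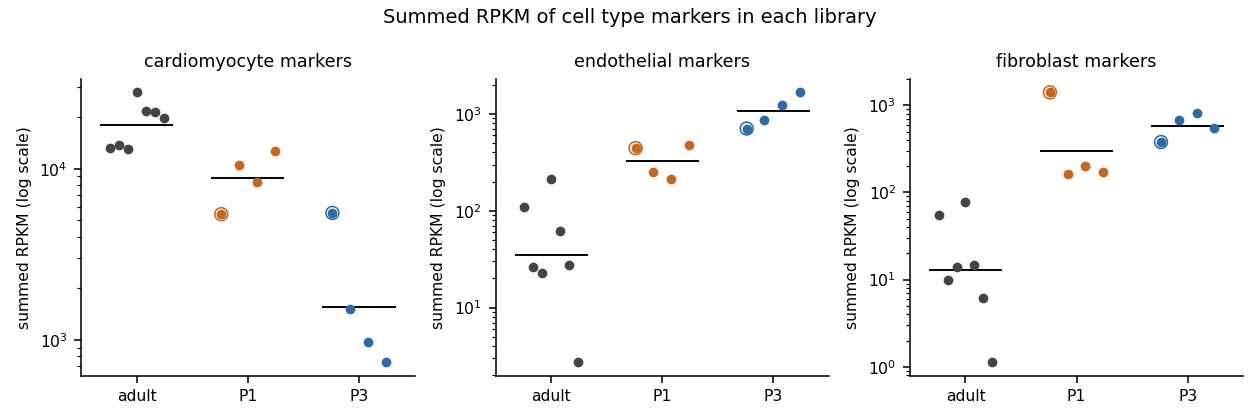
Summed RPKM of cardiomyocyte, endothelial and fibroblast markers in each library (log axis); points are libraries, lines are geometric means, and rings mark replicate 1 of P1 and of P3. The ringed P1 library has the highest fibroblast sum of all 15 libraries (1408), and the ringed P3 library has a cardiomyocyte sum of 5513 against at most 1510 in the rest of P3.

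The pump gene Atp2a2 and its inhibitor Pln were lower in P1 and in P3 than in adult, as were 3 of the 6 release genes in P1 and all 6 in P3. On the deposited scale the exchanger and the kinase were not called lower, but Slc8a1 was called lower in P3 under each scaling of the libraries to a common total or distribution. Changes are differences between group means of log2(RPKM + 0.5), tested with limma over 9389 genes, and a gene is called higher or lower at a Benjamini-Hochberg adjusted p under 0.05 and a log2 change of at least 1. In P1, 5 of the 10 members were called lower (Ryr2, Trdn, Hrc, Atp2a2 and Pln), against 4.32% of all tested genes, and 2 were called higher (Slc8a1 and Camk2d), against 62.7%. In P3, 8 of the 10 were called lower, against 9.16% of all genes, and 0 higher, against 62.7%, with 1 member higher at an unadjusted p under 0.05 (Camk2d). The median member changed by -1.15 in P1 and by -3.06 in P3, whereas the median of all tested genes was 1.36 and 1.48 higher. Over all genes the calls in P1 were 5887 higher and 406 lower as deposited, and 1562 higher and 1856 lower with median-of-ratios scaling, and in P3 they were 5891 and 860 as deposited against 2141 and 2335. In P1, 9 of the 10 members lay below the median gene, and in P3 all 10 did. No library overlapped between P1 and adult for 7 members, 6 of them lower (against 4.86% of all genes) and 1 higher (65.1%), a total to set against 70.0% in either direction. Between P3 and adult this held for 9 members, 8 of them lower (7.99%) and 1 higher (64.3%), with 72.3% in either direction. Without replicate 1 of P1 and of P3, 5 members were called lower and 2 higher in P1, and 9 lower in P3, Slc8a1 (-1.03) being added. Over all 9389 genes these counts were 354, 5983 and 971. Both comparisons use the same adult libraries. With bulk libraries, fewer heart muscle cells and less RNA per cell cannot be told apart in any of these differences, and the part of the endothelial and fibroblast rise in them was not tested.

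**Figure D2:**
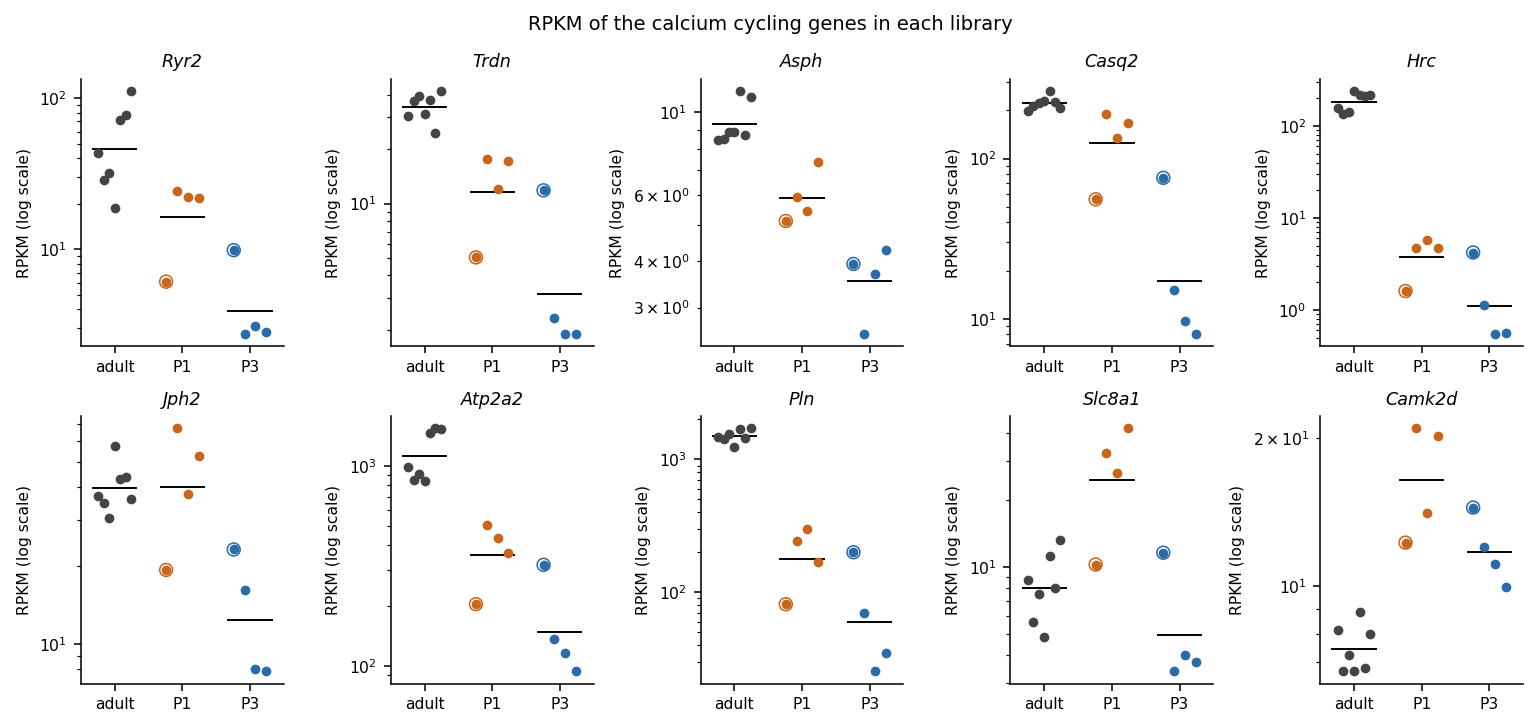
RPKM of each of the 10 genes in every library (log axis, 1 panel per gene); lines are geometric means and rings mark replicate 1 of P1 and of P3. Hrc stands at 134 RPKM or more in all 7 adult libraries and at 5.68 or less in all 8 neonatal ones, while Camk2d is higher in every neonatal library than in any adult one.

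Ryr2 encodes the channel through which the store releases calcium (ENSMUSG00000021313.16, chromosome 13, 11553102 to 12106945, minus strand, mm10). Its RPKM in adult ran from 18.8 to 111 with a median of 43.3. It was 6.09, 24.4, 22.3 and 21.7 in P1 and 9.84, 2.74, 3.08 and 2.84 in P3. Most P1 libraries lay inside the lower end of the adult range, whereas all P3 libraries lay below it. Ryr2 was called lower in P1 (log2 change -1.47, SE 0.47, limma adjusted p = 0.0073) and in P3 (-3.39, SE 0.47, adjusted p = 1.8e-06). It was the member on which the adult libraries differed most. Adult replicates 1 to 4 averaged 30.7 ± 10.1 RPKM (SD, n = 4) and adult replicates 5 to 7 averaged 86.7 ± 21.5 (SD, n = 3), a ratio of 2.82, and those 2 sets did not overlap. The labels name no batch, but the estimated depth of the sets also differed, at 6200000 to 11000000 reads in the first set and 16800000 to 17100000 in the second. Against adult replicates 1 to 4 alone the P1 change was -0.82 and no longer called (adjusted p = 0.10). Without replicate 1 of P1 and of P3, it was -1.01 in P1 and -3.79 in P3, and both were called.

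Trdn encodes triadin, a membrane protein that ties the release channel to the store's calcium buffer (ENSMUSG00000019787.9, chromosome 10, 33080554 to 33476709, plus strand). Its adult RPKM ran from 24.6 to 42.0, with a median of 37.2. The P1 libraries read 5.04, 17.7, 12.1 and 17.1 RPKM and the P3 libraries 11.8, 2.34, 1.90 and 1.90. All neonatal libraries lay below all adult ones. The log2 change was -1.51 in P1 (SE 0.39, limma adjusted p = 0.0016) and -3.20 in P3 (SE 0.39, adjusted p = 3.6e-07). Asph (ENSMUSG00000028207.18, chromosome 4, 9448069 to 9669344, minus strand) encodes the partner junctin as well as junctate and an aspartyl hydroxylase, and gene-level RPKM does not separate these products. It stood at 8.42 to 11.4 RPKM in adult (median 8.86), 5.12, 5.94, 5.43 and 7.37 in P1 and 3.93, 2.55, 3.69 and 4.27 in P3. The 3 groups of Asph values did not overlap. Its P1 change of -0.62 (SE 0.17, adjusted p = 0.0027) fell short of the fold threshold on the deposited scale and was called lower under each scaling to a common total or distribution (-1.28 to -2.06), and its P3 change of -1.28 (SE 0.17, adjusted p = 1.2e-06) was called.

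Hrc and Casq2 encode calcium-binding proteins inside the store, and of the 9 ratios of members compared, theirs differed most between P1 and adult. Hrc, the histidine-rich calcium-binding protein (ENSMUSG00000038239.11, chromosome 7, 45335290 to 45338974, plus strand), read 134 to 239 RPKM in adult with a median of 212. It read 1.61, 4.76, 5.68 and 4.68 RPKM in P1 and 4.21, 1.13, 0.547 and 0.562 in P3. The lowest adult library was therefore far above the highest neonatal one. The log2 change was -5.41 in P1 (SE 0.36, limma adjusted p = 4.9e-10) and -6.75 in P3 (SE 0.36, adjusted p = 2.7e-11), which on this scale, where the added 0.5 understates changes of low genes, is 42.5-fold and 108-fold lower. Only 0.0320% of all tested genes had a more negative change in P1 and 0.0107% in P3. The estimated reads behind Hrc were 3511 to 9627 per adult library, 43 to 164 per P1 library and 15 to 147 per P3 library, so the neonatal levels rest on few reads.

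Casq2, calsequestrin, the main calcium buffer of the store (ENSMUSG00000027861.13, chromosome 3, 102086415 to 102146514, plus strand), stood at 197 to 264 RPKM in adult with a median of 223, close to the Hrc level per length. It read 55.7, 191, 134 and 167 RPKM in P1 and 75.8, 15.1, 9.75 and 8.03 in P3. The highest P1 library fell just under the lowest adult one. In P1 Casq2 was not called (-0.83, SE 0.45, limma adjusted p = 0.094), although the groups did not overlap, and without P1 replicate 1 and P3 replicate 1 it was -0.44. Under each scaling to a common total or distribution it was called lower in P1, at -1.53 to -2.37. In P3 it was called lower (-3.63, SE 0.45, adjusted p = 4.4e-07). The promoters of this pair are shown because the genes work side by side in the store and differed so much between P1 and adult. The runs are the 250 bases before the RefSeq start site (GRCm38.p6, the assembly of mm10), at chr7:45335019-45335268 for Hrc and chr3:102086165-102086414 for Casq2, both on the plus strand, with matches to the searched motifs in capitals.
Hrc: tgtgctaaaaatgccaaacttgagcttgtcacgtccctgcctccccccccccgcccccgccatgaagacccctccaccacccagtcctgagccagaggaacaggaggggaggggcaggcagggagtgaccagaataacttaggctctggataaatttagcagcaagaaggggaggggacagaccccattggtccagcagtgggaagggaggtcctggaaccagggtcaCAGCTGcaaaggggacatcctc
Casq2: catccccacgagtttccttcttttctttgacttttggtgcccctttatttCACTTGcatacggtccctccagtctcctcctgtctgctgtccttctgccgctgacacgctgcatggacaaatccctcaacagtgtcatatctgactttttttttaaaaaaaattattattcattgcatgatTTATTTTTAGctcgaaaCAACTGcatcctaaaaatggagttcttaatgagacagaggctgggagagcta
The motifs searched, on both strands and with overlaps allowed, were the E-box CANNTG (in 66.2% of 32851 RefSeq windows cut to the same 250 bases), the GATA motif AGATAA (9.99%), the M-CAT motif CATTCC (12.6%), the nuclear receptor half-site AGGTCA (14.0%), the TATA box TATAAA (12.4%), the MEF2 consensus (2.92%) and the CArG box (1.47%). The Hrc window holds 1 E-box, 22 bases before the start. The Casq2 window holds 2 E-boxes, 200 and 52 bases before it, and 1 MEF2 consensus match 69 bases before it. Of the 7 members found in the RefSeq promoter table, Casq2 was the only one with a MEF2 match, and a match is no evidence of binding.

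Jph2 encodes junctophilin, which holds the store against the transverse tubule (ENSMUSG00000017817.11, chromosome 2, 163336242 to 163397993, minus strand). Adult libraries ran from 30.4 to 57.4 RPKM with a median of 36.9. P1 libraries read 19.2, 67.1, 37.7 and 52.7 RPKM, and P3 libraries read 23.1, 16.1, 8.03 and 7.86. The P1 values ran from below the adult range to above it and the P3 values all lay below it. Jph2 changed by 0.02 in P1 (SE 0.32, limma adjusted p = 0.96), and this small value turned negative under each scaling to a common total or distribution, from -0.67 to -1.51. In P3 it was called lower (-1.63, SE 0.32, adjusted p = 1.2e-04).

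Atp2a2 encodes the calcium pump SERCA, which refills the store (ENSMUSG00000029467.15, chromosome 5, 122453513 to 122502225, minus strand). It ranked 20.3 on average among the 9666 genes of an adult library, 139 in P1 and 314 in P3. Adult libraries ran from 842 to 1538 RPKM with a median of 986. P1 libraries read 203, 504, 437 and 367 RPKM and P3 libraries 320, 136, 115 and 93.7. All neonatal libraries lay below all adult ones. The log2 change was -1.64 in P1 (SE 0.35, limma adjusted p = 2.8e-04) and -2.92 in P3 (SE 0.35, adjusted p = 3.1e-07). As with Ryr2, adult replicates 5 to 7 (1507 ± 38.6 RPKM, SD, n = 3) lay above adult replicates 1 to 4 (898 ± 66.2, SD, n = 4), and the sets overlapped for the 8 other members.

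Pln encodes phospholamban, the small membrane protein that holds the pump back (ENSMUSG00000038583.13, chromosome 10, 53337667 to 53345987, plus strand). It was the most abundant member in adult, at 1239 to 1713 RPKM with a median of 1467 and a mean rank of 14.9. P1 libraries read 81.1, 244, 302 and 170 RPKM and P3 libraries 200, 70.2, 25.3 and 34.9. The lowest adult library was above the highest neonatal one, and Pln stood below Atp2a2 in all 8 neonatal libraries and in 1 of the 7 adult ones. The log2 change was -3.07 in P1 (SE 0.44, limma adjusted p = 3.6e-06) and -4.65 in P3 (SE 0.44, adjusted p = 1.4e-08). The promoter run is printed because Pln had the second deepest fall among the members. It spans chr10:53337436-53337666 on the plus strand and is trimmed to 231 bases, since an annotated exon begins just before the RefSeq start.
Pln: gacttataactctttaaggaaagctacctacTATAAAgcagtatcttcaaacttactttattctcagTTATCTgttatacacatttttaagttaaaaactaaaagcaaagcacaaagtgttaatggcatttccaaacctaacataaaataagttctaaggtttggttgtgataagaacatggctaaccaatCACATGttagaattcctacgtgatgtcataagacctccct
This run is poor in G and C (32%, against a median of 52.4% over all windows). It holds 1 TATA box, 1 GATA motif on the opposite strand and 1 E-box, which lie 219, 183 and 59 bases before the RefSeq start.

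Slc8a1 encodes the sodium-calcium exchanger NCX of the surface membrane (ENSMUSG00000054640.15, chromosome 17, 81373105 to 81738377, minus strand). Adult libraries ran from 4.84 to 13.2 RPKM with a median of 8.04. P1 libraries read 10.2, 32.4, 26.5 and 41.8 RPKM, and P3 libraries read 11.6, 3.38, 3.99 and 3.74. Apart from P1 replicate 1, all P1 libraries lay above all adult ones, and apart from P3 replicate 1, all P3 libraries lay below them. Slc8a1 was called higher in P1 (1.56, SE 0.36, limma adjusted p = 6.3e-04), a change close to that of the median gene, and the call was lost under each scaling to a common total or distribution, at 0.07 to 0.88. In P3 it was not called (-0.64, SE 0.36, adjusted p = 0.10), and it was called lower at -1.03 without P3 replicate 1 and at -1.18 to -2.14 under the same 4 scalings. From P1 to P3 it fell by 2.21 (SE 0.41, adjusted p = 0.0076).

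Camk2d encodes the delta form of the calmodulin-dependent kinase CaMKII, which phosphorylates phospholamban and the release channel (ENSMUSG00000053819.16, chromosome 3, 126596302 to 126846326, plus strand). Adult libraries ran from 6.71 to 8.86 RPKM with a median of 7.25. P1 libraries read 12.3, 21.0, 14.1 and 20.2 RPKM, and P3 libraries read 14.5, 12.0, 11.1 and 9.95. All neonatal libraries lay above all adult ones. On the deposited scale it was called higher in P1 (1.09, SE 0.18, limma adjusted p = 1.6e-05) but not in P3 (0.62, SE 0.18, adjusted p = 0.0033), where it missed the fold threshold, and its sign depended on the scaling. It became -0.26 in P1 and -0.86 in P3 with quantile normalization, and -0.39 and -0.93 with median-of-ratios scaling. Its P1 call was also lost without P1 replicate 2 (0.98) or P1 replicate 4 (0.996). The runs before the RefSeq start of the only members called higher in P1 are printed for contrast with Hrc and Pln, each 250 bases. They lie at chr17:81738388-81738637 on the minus strand for Slc8a1 and chr3:126596701-126596950 on the plus strand for Camk2d. The Camk2d run lies inside the annotated span of the gene, which begins at 126596302, so it does not stand before the first annotated start.
Slc8a1: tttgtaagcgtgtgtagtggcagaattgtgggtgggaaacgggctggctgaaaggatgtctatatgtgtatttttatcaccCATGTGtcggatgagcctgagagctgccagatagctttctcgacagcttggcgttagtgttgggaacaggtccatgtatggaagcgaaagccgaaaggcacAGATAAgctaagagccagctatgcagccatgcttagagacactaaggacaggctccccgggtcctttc
Camk2d: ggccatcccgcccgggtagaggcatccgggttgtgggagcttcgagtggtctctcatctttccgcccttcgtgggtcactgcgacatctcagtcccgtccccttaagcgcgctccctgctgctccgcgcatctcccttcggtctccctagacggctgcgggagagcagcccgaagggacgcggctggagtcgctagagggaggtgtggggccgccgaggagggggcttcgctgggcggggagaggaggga
The Slc8a1 run holds 1 E-box and 1 GATA motif, 169 and 68 bases before the start. The Camk2d run holds none of the 7 motifs, and its share of G and C was 68.4%, against 50.4% for Slc8a1.

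Because the cardiomyocyte markers themselves fell, each member was also measured against the mean log2 level of the 10 markers in its own library. In P1 the markers fell unequally, which limits this reference. Only Myh6 (-1.59), Tnni3 (-1.73) and Myl3 (-1.57) were called lower there, while Actn2 (-0.04) and Ttn (-0.10) hardly changed. In P3 every marker was called lower. On that scale Hrc and Pln fell further than the markers, Slc8a1 and Camk2d lay above them, and Ryr2, Trdn and Casq2 were not called in either direction. In P1, 2 members were lower relative to the markers (Hrc at -4.57 and Pln at -2.23), against 1.51% of all genes, and 2 were higher (Slc8a1 at 2.40 and Camk2d at 1.93), against 83.6%. In P3, Hrc (-3.43, SE 0.37, limma adjusted p = 2.2e-11) and Pln (-1.33, SE 0.32, adjusted p = 1.6e-04) were lower, against 0.362% of all genes. In the same comparison Camk2d (3.94), Slc8a1 (2.67), Asph (2.04) and Jph2 (1.69) were higher, against 97.1%. The median gene stood at 2.20 in P1 and 4.80 in P3 on this scale, so these 4 members still rose less than the median gene in P3. Casq2 changed by 0.01 in P1 (SE 0.33, adjusted p = 0.98) and -0.31 in P3 (SE 0.33, adjusted p = 0.37). Ryr2 changed by -0.63 (SE 0.42, adjusted p = 0.16) and -0.07 (SE 0.42, adjusted p = 0.87), and Trdn by -0.67 and 0.11. Atp2a2 was -0.81 in P1 (SE 0.30, adjusted p = 0.012), short of the fold threshold, and 0.40 in P3 (adjusted p = 0.19).

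**Figure D3:**
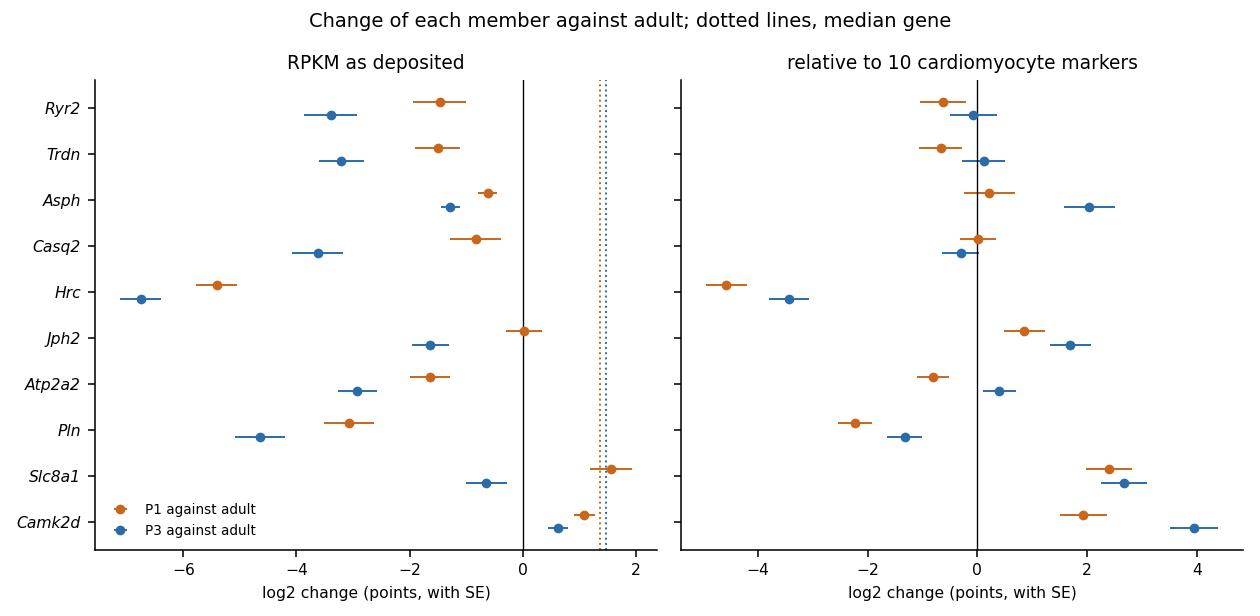
Log2 change of each member in P1 and in P3 against adult, with its SE, for RPKM as deposited (left, dotted lines at the median gene of each comparison) and relative to the 10 cardiomyocyte markers of each library (right). Hrc and Pln lie left of 0 in both panels, while Ryr2, Trdn and Casq2 lie within 0.67 of 0 on the right.

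Ratios between members within a library do not depend on how the library was scaled, and 9 were compared over the 3 pairs of groups with two-sided exact permutation tests (27 tests, Benjamini-Hochberg adjusted). They can still shift with the cell makeup of a library, and that part was not tested for any ratio. The inhibitor lost ground to the pump. Pln stood at 1.34 times Atp2a2 in adult (geometric mean, 0.951 to 1.71 over the 7 libraries). Pln ran at 1.47 to 1.71 times Atp2a2 in adult replicates 1 to 4 and at 0.951 to 1.15 in replicates 5 to 7. It stood at 0.498 times Atp2a2 in P1 (0.399, 0.485, 0.691 and 0.462) and at 0.403 in P3 (0.625, 0.516, 0.219 and 0.373). The groups did not overlap, and both differences from adult had p = 0.0030, the smallest that the 330 arrangements allow in an exact test (adjusted p = 0.010). The exchanger gained on the pump. Slc8a1 was 0.00716 times Atp2a2 in adult (0.00522 to 0.00881), 0.0688 in P1 and 0.0334 in P3, which is 9.60-fold and 4.66-fold above adult (exact p = 0.0030 and adjusted p = 0.010 for each). The lowest P3 library, at 0.0249, was still above the highest adult one.

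Hrc stood at 0.831 times Casq2 in adult (0.633 to 1.06). It was 0.0304 in P1 (0.0288, 0.0249, 0.0423 and 0.0280) and 0.0635 in P3 (0.0555, 0.0747, 0.0561 and 0.0700), or 27.4-fold and 13.1-fold lower than in adult. The replicates that stood apart in other measures did not stand apart in this ratio. Camk2d stood at 0.00497 times Pln in adult (0.00466 to 0.00556), with a ratio 18.6-fold higher in P1 and 39.9-fold higher in P3. This ratio was highest of P1 in replicate 1 (0.151, others 0.0468 to 0.119). It was lowest of P3 in replicate 1 (0.0724, others 0.171 to 0.440). Hrc per Casq2 and Camk2d per Pln each had an exact p = 0.0030 and an adjusted p = 0.010 in each comparison with adult. Asph stood at 0.272 times Trdn in adult, 0.506 in P1 and 1.12 in P3 (exact p = 0.0061 and adjusted p = 0.016 for each). P1 replicate 2, at 0.336, and P3 replicate 1, at 0.331, lay inside the adult range of 0.224 to 0.354. P1 replicate 1 was the highest of P1 at 1.02, and the P3 libraries other than replicate 1 ran from 1.09 to 2.24. Jph2 relative to Ryr2 was 0.852 in adult, 2.45 in P1 (exact p = 0.027, adjusted p = 0.055) and 3.16 in P3 (exact p = 0.018, adjusted p = 0.045). The adult values of that ratio ran from 0.851 to 3.06 in replicates 1 to 4 and from 0.322 to 0.599 in replicates 5 to 7. Its P3 call was lost without any 1 of the P3 libraries or any 1 adult library other than adult replicate 4 (adjusted p = 0.059 to 0.10). Its P1 difference passed without adult replicate 4 (adjusted p = 0.013).

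The remaining ratios kept within the release and pump group and none passed in any comparison over all libraries. Ryr2 per Atp2a2 was 0.0414 in adult, 0.0457 in P1 and 0.0266 in P3 (exact p = 0.66 and 0.073 against adult), and without adult replicate 4 its P3 difference passed (log2 difference -0.785, adjusted p = 0.020). Casq2 per Ryr2 was 4.77, 7.60 and 4.42 (exact p = 0.19 and 0.84), and Trdn per Ryr2 was 0.739, 0.713 and 0.807 (exact p = 0.92 and 0.81). These 2 ratios differed between the adult sets without overlap. Casq2 per Ryr2 ran from 4.55 to 12.1 in adult replicates 1 to 4 and from 1.85 to 3.69 in replicates 5 to 7. Trdn per Ryr2 ran from 0.709 to 1.68 and from 0.319 to 0.523. The P1 log2 difference of Casq2 per Ryr2 was 0.06 against the first adult set and 1.49 against the second (exact test, adjusted p = 0.86 and 0.055). The outcome for these ratios therefore depends on the adult set used. In all, 5 of 9 ratios passed in P1 against adult and 6 of 9 in P3 against adult. Between P3 and P1 0 of 9 passed, with 2 at an unadjusted exact p under 0.05. Those were Slc8a1 per Atp2a2, 2.06-fold lower in P3, and Hrc per Casq2, 2.09-fold higher in P3, each with an exact p = 0.029, the smallest of 70 arrangements, and an adjusted p = 0.055.

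**Figure D4:**
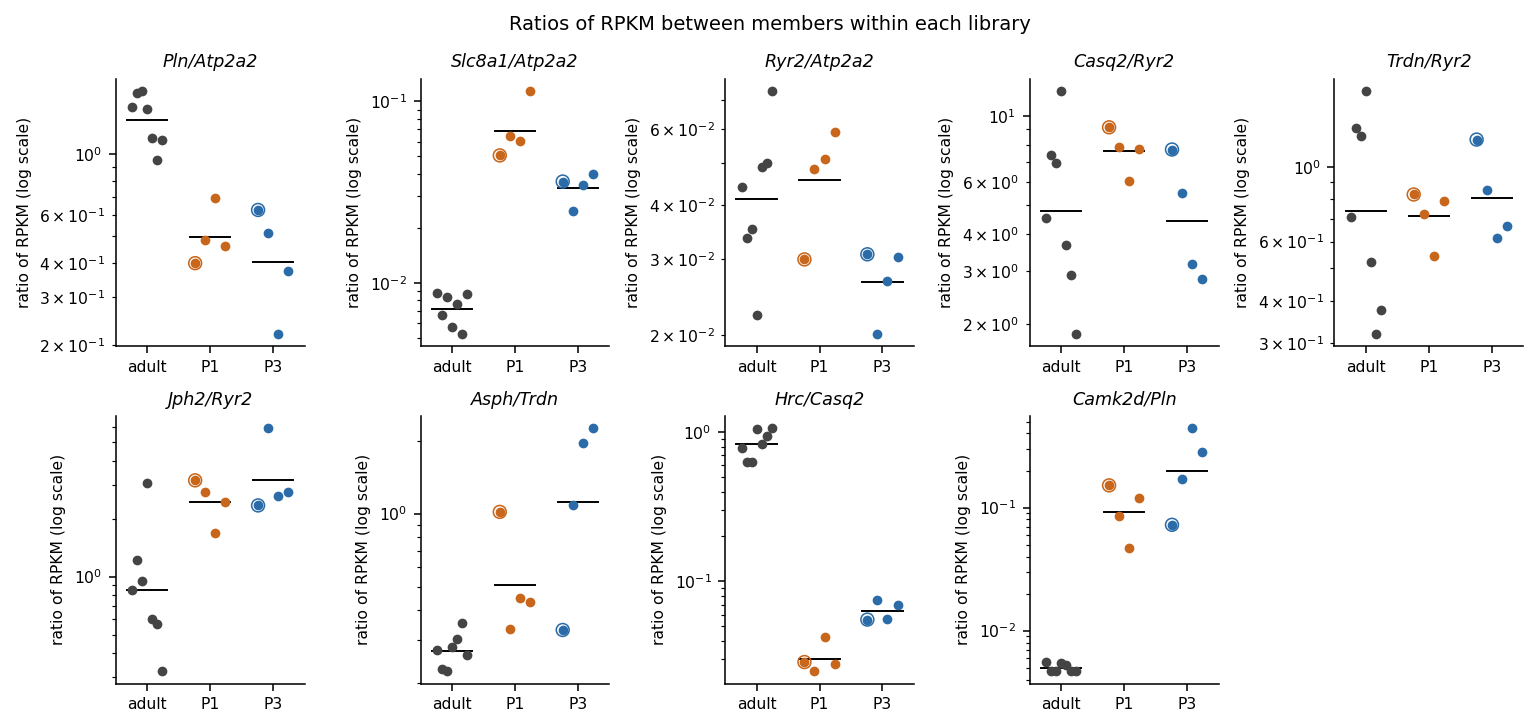
Ratio of RPKM between 2 members in each library (log axis, 1 panel per ratio); lines are geometric means and rings mark replicate 1 of P1 and of P3. Pln/Atp2a2, Slc8a1/Atp2a2, Hrc/Casq2 and Camk2d/Pln show no overlap between adult and neonatal libraries, while Ryr2/Atp2a2, Casq2/Ryr2 and Trdn/Ryr2 overlap.

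Between the neonatal days, 7 of the 10 members were called lower in P3 than in P1 on the deposited scale, against 5.31% of all tested genes, and 0 higher, against 1.4%, with 0 higher at an unadjusted p under 0.05 in limma. The largest falls were those of Casq2 (-2.80, SE 0.51, adjusted p = 0.0069), Slc8a1 (-2.21) and Ryr2 (-1.92, SE 0.53, adjusted p = 0.032). Trdn (-1.70), Jph2 (-1.65), Hrc (-1.34) and Atp2a2 (-1.28, adjusted p = 0.04997) were also called. Pln changed by -1.58 (adjusted p = 0.054), Asph by -0.66 and Camk2d by -0.47, and these were not called. Only Asph did not overlap between the P1 and P3 libraries, being lower in P3 as were 2.53% of all genes, while 10.7% were higher without overlap and 13.2% did not overlap in either direction. The overlap came from replicate 1 of each day, and without these libraries 8 members were called lower, with Casq2 at -3.88 and Hrc at -2.18. The lower calls over all 9389 genes moved too, from 499 with all libraries to 1090 without these 2. The member count was 2 without P1 replicate 2, P3 replicate 3 or P3 replicate 4 (100, 60 and 97 genes lower). It was 3 without P1 replicate 3, P1 replicate 4 or P3 replicate 2 (99, 146 and 146 genes). It was 5 without any 1 adult library other than adult replicate 4 (427 to 495 genes). It was 8 without P1 replicate 1, P3 replicate 1 or adult replicate 4 (801, 889 and 565 genes). Casq2 and Slc8a1 were called on the deposited scale without any 1 library. Cardiomyocyte markers moved with this comparison, 8 of 10 being called lower in P3 than in P1. Relative to them 0 members were lower, against 0.0533% of all genes, and 4 were higher, against 97.1%, namely Camk2d (2.01), Asph (1.82), Atp2a2 (1.20) and Hrc (1.14). The median gene was 2.57 higher on that scale.

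The genes that surround these members in the calcium cycle were read from 6 lists, whose counts stand against 62.7% of all genes called higher in each comparison, 4.32% called lower in P1 and 9.16% in P3. Among 15 genes of partners of the release unit, P1 had 5 called higher and 2 lower, and P3 had 6 and 5. With median-of-ratios scaling these became 2 and 6 in P1 and 4 and 8 in P3, and relative to the cardiomyocyte markers 9 and 1, and 13 and 0. Fkbp1a, which steadies the release channel, rose from 29.0 ± 11.7 RPKM (SD, n = 7) in adult to 168 ± 25.7 (SD, n = 4) in P1 and 255 ± 13.3 (SD, n = 4) in P3. S100a1, a calcium sensor of the channel and pump, changed by -2.05 in P1 and -3.85 in P3. Tmem38a, a counter-ion channel of the store, changed by -1.79 and -3.66. Relative to the cardiomyocyte markers, S100a1 in P3 (-0.53) and Tmem38a in P1 (-0.95) and in P3 (-0.34) were not called.

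Among 14 pump regulators and their phosphatase, kinase and phosphodiesterase genes, P1 had 7 called higher and 2 lower, and P3 had 8 and 2. With median-of-ratios scaling 0 were higher and 4 lower in each comparison, and with quantile normalization 1 was higher and 3 lower in each. Quantile normalization gave 1669 higher and 1683 lower of 9389 genes in P1, and 2376 and 2165 in P3. Hspb6, a small heat shock protein that acts on the phospholamban phosphatase, fell from 243 ± 67.5 RPKM (SD, n = 7) to 56.2 ± 18.4 (SD, n = 4) in P1 and 14.2 ± 13.4 (SD, n = 4) in P3. Ppp1r3a, a phosphatase subunit of the store and of glycogen, changed by -1.62 and -2.57. Ppp1cc, a phosphatase catalytic subunit, was 2.20 and 1.89 higher, and Ppp1r2, an inhibitor of that phosphatase, 1.81 and 2.36 higher, but each lost a call under at least 1 other scaling. Relative to the cardiomyocyte markers Ppp1r3a lost its P1 call (-0.79) and turned to 0.75 in P3. The pump inhibitors Sln, Mrln and Strit1 were not analysed here.

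Surface membrane genes of calcium entry and exit had 8 of 16 called higher and 2 lower in P1, and 5 higher and 4 lower in P3. With median-of-ratios scaling the balance turned, to 1 higher and 6 lower in P1 and 3 higher and 9 lower in P3. Fxyd1, phospholemman, which holds the sodium pump back, changed by -1.13 in P1 and -3.44 in P3. It lost the P1 call without P1 replicate 1 (-0.99) or adult replicate 4 (-0.97), with a replicate block and with either adult set alone. Relative to the cardiomyocyte markers Fxyd1 was not called, at -0.30 in P1 and -0.12 in P3. Ahnak, a scaffold tied to calcium channels, was 2.63 and 2.64 higher, and Stim2, a sensor of store calcium, 1.89 and 2.74 higher, with its P1 call lost after quantile normalization (0.77) and median-of-ratios scaling (0.83).

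Of the luminal buffers and chaperones of the general endoplasmic reticulum, 15 of 15 were called higher in P1 and 15 of 15 in P3, against 62.7% of all genes in each comparison. Their median was 1.74 and 2.09 higher, against 1.36 and 1.48 for all genes. With median-of-ratios scaling 5 of 15 were called higher in each comparison and 0 lower. The matching all-gene counts were 1562 of 9389 higher in P1 and 2141 in P3. Rcn1, reticulocalbin, rose from 2.51 ± 1.20 RPKM (SD, n = 7) in adult to 24.03 ± 13.5 (SD, n = 4) in P1 and 37.2 ± 5.71 (SD, n = 4) in P3. Pdia3 and Pdia4, protein disulfide isomerases, were 2.80 and 2.71 higher in P1 and 3.42 and 3.31 higher in P3, and Selenon, a selenoprotein of this membrane, 2.66 and 2.99 higher. Endothelial and fibroblast marker sums rose in the same libraries, and their part in these rises was not tested.

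Among 16 further calmodulin kinase and calcineurin genes, P1 had 9 called higher and 3 lower, and P3 had 8 and 3. With median-of-ratios scaling these became 0 and 4 in P1 and 1 and 6 in P3. Myoz2, calsarcin, which holds calcineurin at the Z-disc, changed by -2.06 and -4.82, and Rcan2, a calcineurin regulator, by -1.04 and -2.89, the former value short of the threshold without P1 replicate 1 (-0.71) or any 1 of adult replicates 5 to 7 (-0.98 to -0.997). Camkk2, a kinase upstream of other calmodulin kinases, was 1.79 and 2.28 higher and Nfatc3, a calcineurin target, 1.71 and 2.32 higher. With median-of-ratios scaling Camkk2 lost its P1 call (0.75) and Nfatc3 both of its calls (0.40 and 0.90). Among 13 genes of mitochondrial calcium transport, P1 had 5 called higher and 0 lower, and P3 had 4 and 3. With median-of-ratios scaling these became 2 and 6 in P1 and 2 and 8 in P3, and relative to the cardiomyocyte markers 8 and 0, and 13 and 0. Micu3, a regulator of the mitochondrial uniporter, was 1.86 and 2.14 higher, and Slc8b1, the mitochondrial sodium-calcium exchanger, 2.27 and 3.14 higher. Micu3 lost both calls with median-of-ratios scaling (0.72 and 0.92). Ppif, cyclophilin D, changed by -0.46 in P1, which was not called as deposited but was called lower under the 4 scalings (-1.16 to -1.99), and by -2.005 in P3.

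Across the 15 libraries the genes most like Ryr2 in log2 level were 3425401B19Rik (Pearson r 0.983), Pde4dip, an anchoring protein, Sspn, sarcospan, Vldlr and Tmem182. Those most like Atp2a2 were Txlnb (0.993), Nnt, Pfkm, the muscle phosphofructokinase, Slc2a4 and Cyfip2. Hrc was most like Ephx2 (0.996), Ckmt2, the mitochondrial creatine kinase of striated muscle, Adhfe1, Tango2 and Fndc5. These values describe libraries that share age group and cell makeup. With group means removed, all pairs of members had a positive r. The highest were Trdn with Casq2 (0.945), Casq2 with Hrc (0.913), and Ryr2 with Slc8a1 (0.910) and Atp2a2 (0.908). Asph ran from 0.059 with Pln and 0.087 with Jph2 to 0.617 with Slc8a1. These r still hold the differences between the 2 adult sets and those of replicate 1 of P1 and of P3.

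Overlapping genes on the opposite strand touch exons of Asph (Clvs1 and Gm25677), Atp2a2 (Gm43361), Pln (Gm47644) and Slc8a1 (AC122399.1 and Gm11096). How strand entered the counting is not stated, and reads of these partners therefore cannot be told apart from those of the 4 members.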

How the data were processed

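The authors deposited 1 table of RPKM values, with 1 column for each of the 15 libraries, and 0 value columns could not be mapped. Reads were processed with HISAT2 and Partek 6.6 on mouse build mm10, per the submitters' processing notes. Which annotation was used, how reads were counted and whether by strand is not given in the sources used here. The table lists no RPKM under 0.1001, so genes below that in any library are not analysed here. Library medians were 2.02 to 3.52 RPKM in adult and 8.41 to 9.59 in neonatal libraries.

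The members were matched by exact symbol. A gene was tested if its RPKM reached 1 in 4 or more libraries, which 9389 genes including all 10 members did. The model, on log2(RPKM + 0.5), had 1 coefficient for each age group and was fitted in R 4.3.3 by limma 3.58.1 with a trended prior (eBayes), and p-values were Benjamini-Hochberg adjusted over all genes tested. The fit was tested on simulated data first. Ratios were compared by exact permutation tests. Depth was estimated from the whole-read steps of RPKM and exon lengths of GENCODE for mm10, counting each step as 1 read, and a step worth more reads would change the depth found for the adult sets.

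The members, gene lists, ratios and alternatives were chosen with earlier results of these data known. The text names the 10 members, up to 4 called genes with the largest change from each list, the 5 genes most like Ryr2, Atp2a2 and Hrc, and cell type markers. Some genes that this rule selects are not reported here. Alternatives were 2 other pseudocounts, no filter, 5 scalings, no trend, a replicate block, each adult set alone and each library left out. Leaving out replicate 1 of P1 and of P3 together was chosen after seeing the data.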

Additional observations from a re-analysis of the deposited data

Results flagged for a closer look

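For each member and ratio the libraries of an age group were checked for a single one far from the rest. Of 57 such sets, 5 were picked out because the gap from an end library to its neighbour took up most of the range, and chance picks out about 1 in 20. Ryr2 in P1 was lowest in replicate 1, at 6.09 RPKM with the next at 21.7, a gap of 0.913 of the log2 range. Hrc in P1 was also lowest in replicate 1, at 1.61 RPKM with the next at 4.68, a gap of 0.835. In P3 the far library was replicate 1 and it was the highest. Ryr2 stood there at 9.84 RPKM with the next at 3.08 (0.914), Trdn at 11.8 with the next at 2.34 (0.896) and Slc8a1 at 11.6 with the next at 3.99 (0.871). These are the libraries that also stood apart in fibroblast and cardiomyocyte marker sums, and the part of those cells in the gaps was not tested.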

How the results depend on the processing

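Across the alternatives, 718 member values stayed on the same side of zero and of the threshold, 67 lost a call, 24 gained one and 31 turned direction; for ratios these were 498, 47, 2 and 20. The members called higher in P1 dropped from 2 to 0 under quantile normalization, median-of-ratios scaling and an equal RPKM sum with or without the 100 highest genes, and ran from 1 to 2 when single libraries were left out (1 without P1 replicate 2 or P1 replicate 4). Over all 9389 genes, higher calls in P1 were 1669, 1562, 3886 and 2934 under those 4 scalings in turn. The members called lower in P1 became 8 under quantile normalization and median-of-ratios scaling, against 1683 and 1856 of 9389 genes. The median gene changed by 0.09 (P1) and 0.17 (P3) after the former, 0.06 and 0.09 after the latter, 0.78 and 1.00 with an equal sum, and 0.52 and 0.64 without the 100 highest genes, against 1.36 and 1.48 as deposited. Jph2 in P1 became -1.10, -1.51, -0.67 and -0.98 in that order, -0.0197 against adult replicates 5 to 7, and ran from -0.23 to 0.37 with single libraries left out. Camk2d became -0.26 and -0.39 in P1 with the first 2 scalings, and -0.86, -0.93 and, without the 100 highest genes, -0.32 in P3.

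Relative to the cardiomyocyte markers the lower and higher counts were 2 and 2 in P1, 2 and 4 in P3, and 0 and 4 for P3 against P1. Signs turned there for Asph (0.22), Casq2 (0.009) and Ppif (0.37) in P1, and for Trdn (0.11), Asph (2.04), Jph2 (1.69), Atp2a2 (0.40), Slc8a1 (2.67), Ppp1r3a (0.75), Rcan2 (0.43) and Ppif (1.31) in P3. Between P3 and P1 they turned for Ryr2 (0.56), Trdn (0.78), Asph (1.82), Hrc (1.14), Jph2 (0.83), Atp2a2 (1.20), Pln (0.90), Slc8a1 (0.28) and Camk2d (2.01). The members called lower between P3 and P1 numbered 4 with adult replicates 1 to 4 only, and 2 to 8 with single libraries left out. Over all 9389 genes the lower calls were 320 in the former setting and 60 to 889 in the latter.

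Same-numbered libraries were correlated after group means were removed, and 3 of 12 correlations passed 0.1 (range -0.50 to 0.37). Of the 12, 4 matched their own number best. These were adult replicates 1, 2 and 3 with P1, and P1 replicate 4 with P3. With so few libraries these correlations cannot settle whether replicate numbers pair the samples. With a replicate block 4 members were called lower and 2 higher in P1, 8 lower in P3, and 2 lower between P3 and P1. Over all 9389 genes these counts were 343, 6248, 777 and 110. The ratios past the threshold fell to 0 of 9 in P1 and 0 of 9 in P3 with a replicate block, with adult replicates 1 to 4 only and with adult replicates 5 to 7 only, where the few arrangements leave adjusted p at 0.055 or above. Trdn/Ryr2 in P3 turned to -0.54 with the block and with adult replicates 1 to 4, and to -0.07 without replicate 1 of P1 and of P3.

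The log2 ratio differences that missed the threshold also turned sign. With adult replicates 5 to 7 only, Ryr2/Atp2a2 in P1 was -0.31, Trdn/Ryr2 in P1 0.84 and Casq2/Ryr2 in P3 0.70. With the median of ratios, Trdn/Ryr2 was 0.10 in P1 and -0.0034 for P3 against P1. With single libraries left out, Ryr2/Atp2a2 in P1 ran from -0.0065 to 0.34, Casq2/Ryr2 in P3 from -0.38 to 0.11, and Trdn/Ryr2 from -0.25 to 0.15 in P1, -0.075 to 0.32 in P3 and -0.0143 to 0.31 for P3 against P1. The cause of these shifts was not tested. Depth limits Hrc most, with as few as 15 estimated reads in a P3 library.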
